A study of Mus musculus with 2 samples.

Results

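The genes described here are 10 genes of mitochondrial fatty acid oxidation, out of 28692 genes measured in leukocytes of mouse adipose tissue: Cpt1a, Slc25a20, Cpt2, Acadvl, Acadl, Acadm, Hadha, Hadhb, Etfdh and Pdk4. They were taken by their symbols, and all 10 had at least 1 UMI in each of 2 single-cell libraries. A UMI, or unique molecular identifier, stands for 1 captured transcript molecule. The cells were CD45+ leukocytes from the adipose tissue of C57BL/6 mice of wt genotype. Mice of the control group ate chow and mice of the other group ate a ketogenic diet, a diet low in carbohydrate and high in fat, for 1 week. Leukocytes resident in the tissue had been told apart from those in blood vessels by intravenous labelling. Each diet has 1 library, the titles call both groups adult and the labels used here give no number of mice, exact age or sex, and no difference between diets has a replicate check.

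Long-chain fatty acids enter the mitochondrion as carnitine esters. Cpt1a on the outer membrane makes the ester, the carrier Slc25a20 moves it across the inner membrane, and Cpt2 turns it back into acyl-CoA. In the matrix, acyl-CoA dehydrogenases start each round of beta-oxidation and the trifunctional protein, built from Hadha and Hadhb, completes it for long chains. Electrons from the dehydrogenases pass through the electron transfer flavoprotein to Etfdh and on to ubiquinone. Pdk4 phosphorylates and inhibits pyruvate dehydrogenase, which limits the use of glucose carbon when fat is burned. Several of these genes, Cpt1a and Pdk4 among them, are known targets of the nuclear receptors called PPARs, which respond to fatty acids.

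The chow library held 4545 cells and 21570910 UMIs, and the ketogenic library held 5614 cells and 26041785 UMIs. Median depths were 3469 and 3461.5 UMIs per cell. The libraries share 41 cell barcodes. The authors' deposited table puts 4458 and 5559 of these cells in 13 clusters, numbered from 0 to 12, and the values below are UMIs summed over the cells of a cluster in 1 library. They are given as CPM, counts per 1000000 UMIs of the same cells, and square brackets hold 95% intervals (exact Poisson for a level, exact conditional for a ratio). These intervals cover counting error only. Cluster names come from marker genes: 0 is ILC2-like (group 2 innate lymphoid cells), 1 NK-like (natural killer cells), 2 T-like, 3 macrophage-like with monocyte markers, 5 and 6 cDC2-like and cDC1-like (conventional dendritic cells), 7 Treg-like (regulatory T cells), 9 B and plasma-like, 10 cycling, 11 γδ T-like and 12 mature DC-like. Cluster 4 is T-like but led by the receptor genes Klra1 and Klra7, and cluster 8, led by Retnla, Fcrls and Lyz1, has no name. Ptprc, which encodes CD45, had UMIs in 13 of 13 clusters of both libraries, at 133 to 968 CPM on chow and 139 to 849 CPM on the ketogenic diet. Of 10 adipocyte markers, 7 on chow and 6 on the ketogenic diet had a UMI, at a summed 31.3 and 21.7 CPM. Fabp4, with 477 and 350 UMIs, and Lipe, with 170 and 195, made up most of that sum. Among the defining markers, Adipoq had 1 UMI in each library and Lep and Adrb3 had 0. Composition differed strongly, since cluster 3 held 859 chow and 145 ketogenic cells and cluster 8 held 362 and 47, so members are compared within clusters. Doublets were not called here.

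The promoters of Cpt1a, Slc25a20 and Pdk4 are shown because these genes gave the clearest patterns: Cpt1a and Pdk4 were lower on the ketogenic diet and Slc25a20 was high in a single cell type. They are RefSeq sequences of GRCm38.p6, from 250 bases before to 50 bases after the annotated start, at chr19:3323051-3323350 on the plus strand (Cpt1a), chr9:108661886-108662185 on the plus strand (Slc25a20) and chr6:5496229-5496528 on the minus strand (Pdk4). Capitals mark matches on either strand to AGGTCA, the element nuclear receptors recognise, to GGGCGG, the GC box bound by Sp factors, or to DR1, the direct repeat of AGGTCA with 1 base between, which PPAR binds together with RXR, searched with up to 2 mismatches.
Cpt1a: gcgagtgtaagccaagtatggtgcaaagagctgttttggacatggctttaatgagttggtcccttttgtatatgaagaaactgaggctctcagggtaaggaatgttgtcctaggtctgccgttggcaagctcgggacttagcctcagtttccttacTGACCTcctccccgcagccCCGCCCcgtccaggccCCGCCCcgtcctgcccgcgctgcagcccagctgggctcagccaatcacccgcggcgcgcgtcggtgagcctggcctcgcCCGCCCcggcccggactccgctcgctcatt
Slc25a20: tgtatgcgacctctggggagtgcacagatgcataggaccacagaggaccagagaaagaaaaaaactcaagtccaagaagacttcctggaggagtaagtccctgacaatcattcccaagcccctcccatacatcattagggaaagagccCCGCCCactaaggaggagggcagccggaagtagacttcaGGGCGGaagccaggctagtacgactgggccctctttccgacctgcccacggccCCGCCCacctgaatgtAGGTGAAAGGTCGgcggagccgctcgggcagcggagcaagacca
Pdk4: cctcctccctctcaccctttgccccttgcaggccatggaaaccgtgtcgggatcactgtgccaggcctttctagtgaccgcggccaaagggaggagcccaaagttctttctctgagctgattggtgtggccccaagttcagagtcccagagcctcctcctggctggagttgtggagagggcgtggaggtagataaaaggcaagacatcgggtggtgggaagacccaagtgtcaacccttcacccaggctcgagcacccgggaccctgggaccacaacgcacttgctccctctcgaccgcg
The Cpt1a window has 1 AGGTCA match, 94 bases before the start, and 3 GC boxes. Slc25a20 has the only DR1 match among the 10 promoters, at base 7 after the start, and 3 GC boxes. The Pdk4 window has no match to any of these motifs, which says only that these letters are not in this window. Over 32851 mouse promoters of the same length, 3.86% held a DR1 match, 16.3% an AGGTCA match and 35.7% a GC box. A single AGGTCA match was also present in the promoters of Acadvl and Acadm. The longer element TCAAGGTCA, recognised by estrogen-related receptors, was in none of the 10 and in 0.423% of all promoters. A match is a description of the sequence and does not show binding.

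Across cell types, the 10 genes did not move together between the diets. Cpt1a was lower on the ketogenic diet in 13 of 13 clusters and Pdk4 went from 76 UMIs to 1, whereas Hadhb, Acadvl, Hadha and Etfdh were mostly somewhat higher and Slc25a20, Acadl and Acadm lay close to equal once composition was held equal. Of the 130 combinations of gene and cluster, 94 had at least 30 UMIs over both libraries. They include no value of Pdk4 and 1 of Cpt2. A difference of at least 2-fold on the log2 scale with 0.5 added to each UMI sum is called here. The call was reached downwards in 6, all of them Cpt1a, against 3.15% of all gene and cluster combinations. It was reached upwards in 2, against 4.67% of all combinations. The median log2 ratio over the 94 was 0.18, with 61 higher and 33 lower, and 0.07 over all genes, with 47040 of 83592 combinations higher.

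**Figure D1:**
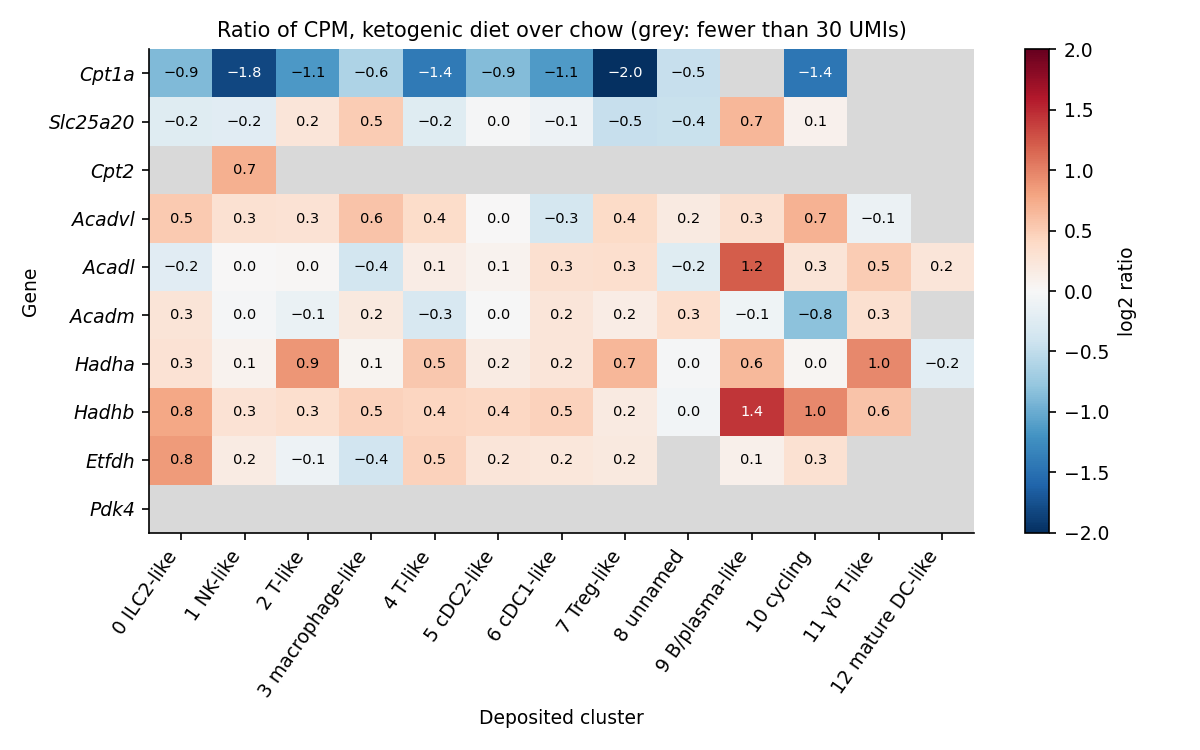
Log2 of the level in CPM on the ketogenic diet divided by that on chow, for each gene (rows) in each deposited cluster (columns), red for higher and blue for lower, grey where both libraries together held fewer than 30 UMIs. The Cpt1a row is blue in all 10 of its filled cells, and no filled cell of another gene reaches −1.

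Cpt1a, the rate-limiting step of long-chain entry (chr19:3322334-3385733, plus strand, GRCm38), gave the widest differences between the diets within clusters among members with enough UMIs there. Over all clustered cells it stood at 47.9 CPM [45.0–50.9] from 1023 UMIs on chow and at 17.2 CPM [15.6–18.9] from 445 UMIs on the ketogenic diet. With each cluster weighted by its mean share of cells in the libraries, so that composition is held equal, the log2 ratio was −1.08. This was the 135th lowest value of 12108 genes with at least 30 UMIs, and the unweighted value was −1.48.

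The Treg-like and NK-like clusters showed the strongest Cpt1a difference of those with enough UMIs. In the Treg-like cluster, Cpt1a fell from 54.2 CPM [35.7–78.9] (27 UMIs) to 13.4 CPM [8.09–20.98] (19 UMIs), which is 4.04-fold [2.16–7.68]. In the NK-like cluster it fell from 48.4 CPM [38.8–59.7] (87 UMIs) to 13.6 CPM [10.1–18.0] (49 UMIs), which is 3.55-fold [2.47–5.15]. The libraries' intervals did not overlap in either cluster. The cycling cluster fell from 39.9 to 14.4 CPM (55 and 23 UMIs) and cluster 4 from 34.5 to 12.9 CPM (26 and 25 UMIs). The cDC1-like cluster fell from 32.8 to 14.9 CPM (80 and 52 UMIs), and the T-like cluster 2 from 32.2 to 14.7 CPM (20 and 41 UMIs). These 6 clusters had log2 ratios from −2.002 to −1.13, and among all genes the same call was reached by 2.15% in the Treg-like cluster, 2.3% in the NK-like cluster and in cluster 4, 2.4% in cluster 2, 1.87% in the cDC1-like cluster and 4.54% in the cycling cluster. In cluster 2 the call rests on shallow cells too: with only the cells at least as deep as the shallowest ketogenic cell its log2 ratio was −0.84.

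On the ketogenic diet, the macrophage-like, cDC2-like and ILC2-like clusters and cluster 8 held 22.0 to 47.6 CPM of Cpt1a and the other 9 clusters 7.40 to 14.9 CPM. In those first 4 clusters the difference between diets stayed under 2-fold. They were set apart by their ketogenic level, which enters this ratio, so the smaller difference is partly given by the grouping. Their chow levels, 40.8 to 68.3 CPM, overlapped those of the other clusters, 15.6 to 54.2 CPM. The ILC2-like cluster had 40.8 CPM [33.1–49.7] on chow and 22.0 CPM [17.8–26.9] on the ketogenic diet, a log2 ratio of −0.89. The cDC2-like cluster had 45.8 and 25.0 CPM, a log2 ratio of −0.87. The macrophage-like cluster had 59.5 CPM [52.9–66.6] and 38.1 CPM [26.4–53.2], a log2 ratio of −0.62. The unnamed cluster 8 was highest in both libraries, at 68.3 CPM [59.2–78.5] and 47.6 CPM [24.6–83.2], and its intervals overlapped. In the remaining clusters, 9, 11 and 12, Cpt1a had 24, 14 and 16 UMIs in all and no call was made. Cluster 9 was lowest in both libraries, at 15.6 and 7.40 CPM. In that cluster 19% of all genes lay at least 2-fold below the other cells in both libraries. The difference in the macrophage-like cluster varied with which of its cells were counted, though with overlapping intervals. The ratio was 0.317 [0.101–0.760] in its cells with at least 3 C1q UMIs and 0.794 [0.517–1.18] in the others. Its cells with at least 3 UMIs of the complement genes C1qa, C1qb and C1qc had 64.9 CPM (124 UMIs, 299 cells) on chow and 20.6 CPM (5 UMIs, 32 cells) on the ketogenic diet, and the other cells had 56.2 CPM (178 UMIs) and 44.6 CPM (29 UMIs).

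A lower value in all 13 clusters was found for 2.32% of the 5183 genes with at least 30 UMIs in at least 10 clusters, and 0.656% of them were called lower in 6 or more. Macrophage transcripts moved in the same direction in lymphoid clusters. The summed level of 12 macrophage markers was 220 CPM on chow and 55.6 CPM on the ketogenic diet in the NK-like cluster, and 225 and 73.5 CPM in the Treg-like cluster. In their own cluster 3 the same 12 markers stood at 6112 and 7471 CPM. A removal was made of 10% of a cluster's UMIs with the profile of its whole library, as free RNA would add them. Cpt1a was then called in 6 clusters, with log2 ratios from −2.06 to −1.08. The other 4 with enough UMIs lay between −0.83 and −0.42. Over all clustered cells Cpt1a was itself lower, at 47.9 and 17.2 CPM, so this removal cannot separate free RNA from the cells' own. The share of free RNA was not measured, and its part in the Cpt1a values was not tested. Depth per cell also differed in the lymphoid clusters, with medians of 2296.5 and 3147 UMIs in the NK-like cluster. The part of depth in the difference was not tested beyond that same minimum depth, with which Cpt1a was called in 5 clusters.

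**Figure D2:**
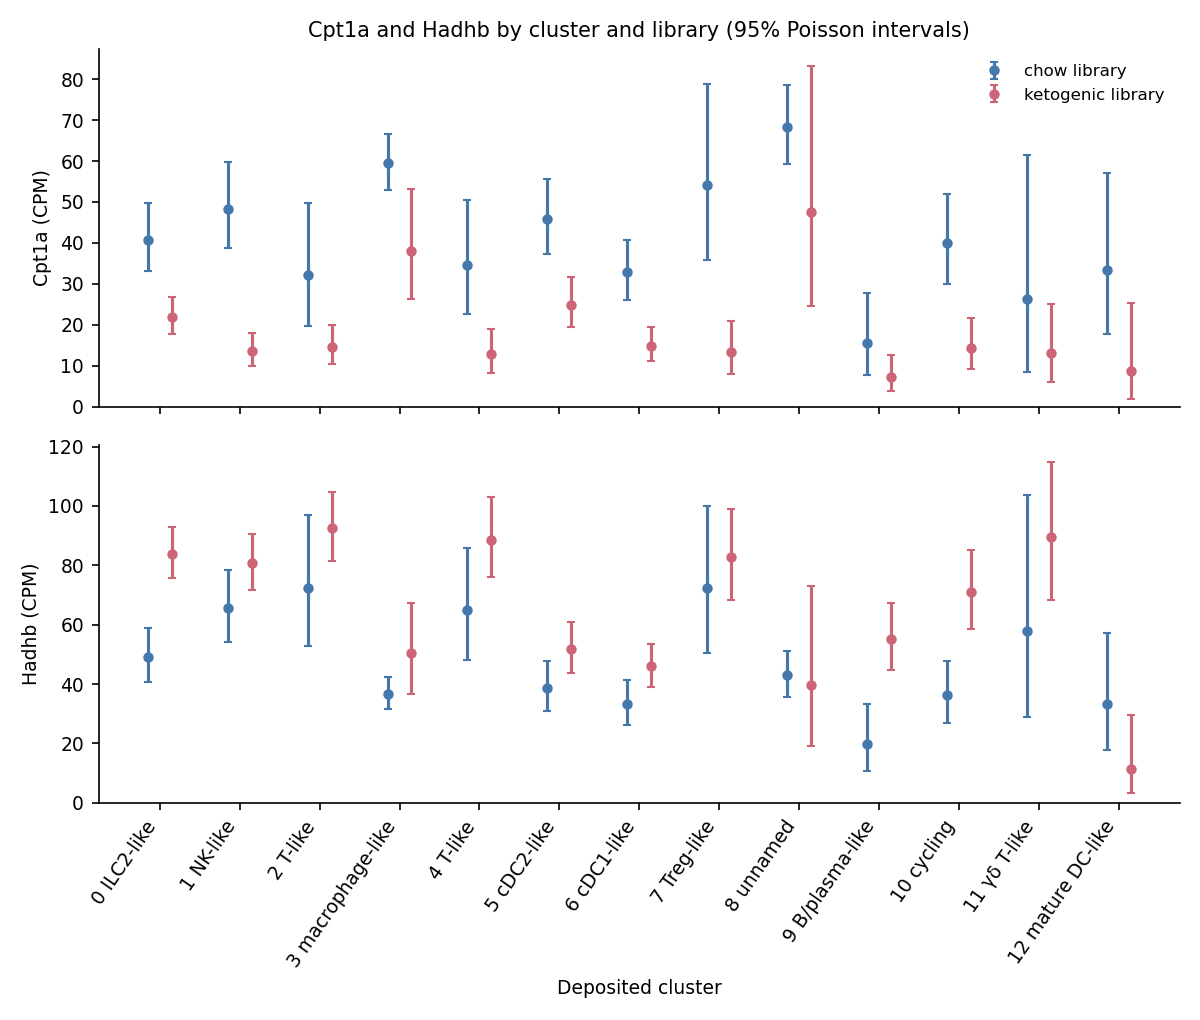
Level in CPM of Cpt1a (top) and Hadhb (bottom) in the 13 deposited clusters, blue for the chow library and red for the ketogenic library; bars are exact Poisson intervals at 95% and cover counting error only. Every red Cpt1a point lies below its blue neighbour, and Hadhb is higher on the ketogenic diet in 11 of 13 clusters.

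Slc25a20, the carnitine-acylcarnitine carrier of the inner membrane (chr9:108662088-108684641, plus strand), differed between cell types far more than between diets. In the cDC1-like cluster, cross-presenting dendritic cells, it stood at 223 CPM [205–243] from 544 UMIs on chow and at 208 CPM [193–223] from 723 UMIs on the ketogenic diet. These levels were 6.33-fold and 6.14-fold above all other clustered cells of the same library. Among members with at least 30 UMIs in each library over all clustered cells, which leaves out Pdk4, no other reached 2-fold above the other cells in both libraries in any cluster, against 3.2% of all genes in the cDC1-like cluster and 4% of all gene and cluster combinations. Since the clusters were made from expression, this is a description with no test. The cycling cluster came next, at 50.1 CPM [38.9–63.3] and 53.3 CPM [42.6–65.9], and the cDC2-like cluster followed at 48.1 and 47.4 CPM. These neighbours in the order overlap in their intervals, whereas the cDC1-like level stands clear of both. The cycling cluster also carried cDC1 markers, at a summed 1326 and 1213 CPM against 2961 and 3365 CPM in the cDC1-like cluster.

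Among clusters with enough UMIs, the lowest Slc25a20 levels were those of the B and plasma-like cluster, at 14.2 and 23.3 CPM (10 and 41 UMIs), and of the ILC2-like cluster, at 26.1 CPM [19.99–33.4] and 22.0 CPM [17.8–26.9]. Both lay at least 2-fold below the other cells in both libraries, which 11% of all gene and cluster combinations did. The same was reached by 19% of all genes in the B and plasma-like cluster and by 12.1% in the ILC2-like cluster. Between diets no cluster was called for Slc25a20. Its log2 ratios ran from −0.46 to 0.67 over 11 clusters with enough UMIs, and over all cells the ratio was 1.01 [0.935–1.09].

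Cpt2, the matrix acyltransferase (chr4:107903981-107923610, minus strand), was sparse. It had 76 UMIs on chow, or 3.56 CPM [2.80–4.46], and 134 on the ketogenic diet, or 5.18 CPM [4.34–6.14]. The NK-like cluster alone reached 30 UMIs, with 3.89 CPM (7 UMIs) and 6.68 CPM (24 UMIs), a ratio of 1.72 [0.717–4.71]. In the cycling cluster, with 5 and 17 UMIs, the ratio was 2.94 [1.04–10.2], below the minimum for a call. The composition-weighted log2 ratio was 0.44.

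Acadl (chr1:66830839-66863277, minus strand), the long-chain enzyme, was highest in the ILC2-like cluster, with 126 CPM [112–141] from 300 UMIs on chow and 108 CPM [98.7–118] from 472 UMIs on the ketogenic diet. That was 2.54-fold and 1.84-fold above the other cells, so the 2-fold mark was reached in the chow library only. The cycling cluster was second in both libraries, at 87.0 CPM [72.2–104] and 104 CPM [88.9–121], and overlapped the ILC2-like cluster on the ketogenic diet. All other clusters lay between 18.4 and 59.0 CPM on chow and between 31.4 and 74.2 CPM on the ketogenic diet.

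**Figure D3:**
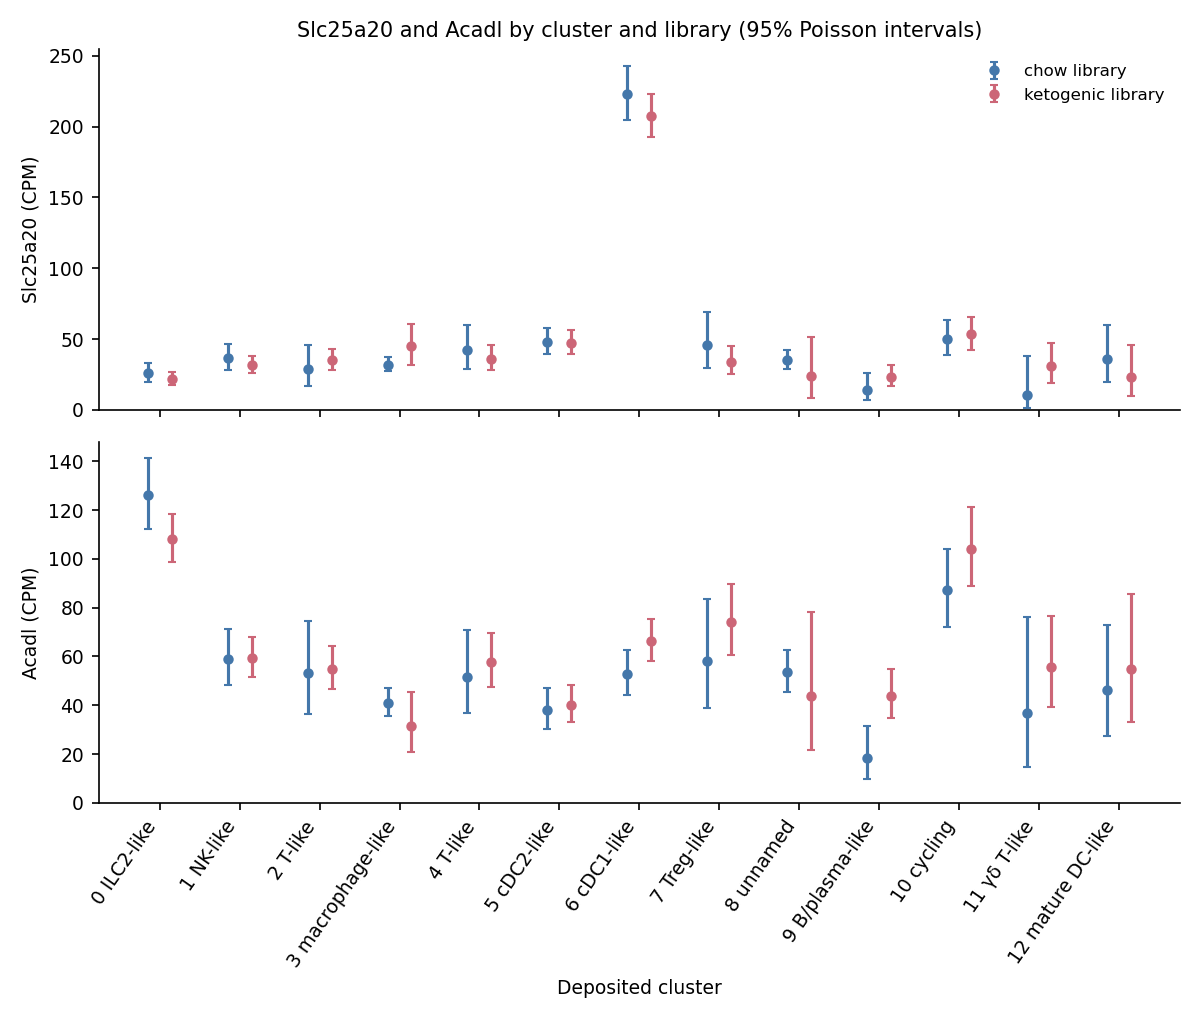
Level in CPM of Slc25a20 (top) and Acadl (bottom) in the 13 deposited clusters, blue for the chow library and red for the ketogenic library; bars are exact Poisson intervals at 95%. The cDC1-like points of Slc25a20, at 223 and 208 CPM, lie far above the rest, and Acadl is highest in the ILC2-like cluster and next in the cycling cluster.

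The B and plasma-like cluster held the only Acadl difference between diets that passed the call. Acadl rose there from 18.4 CPM [9.80–31.5] (13 UMIs) to 43.8 CPM [34.6–54.8] (77 UMIs), a ratio of 2.38 [1.31–4.67]. Hadhb rose there as well, from 19.8 CPM [10.8–33.3] (14 UMIs) to 55.2 CPM [44.8–67.4] (97 UMIs), a ratio of 2.78 [1.58–5.28]. In this cluster 20% of all genes were called higher and the median log2 ratio of all genes was 0.50. The 7 plasma cell markers, antibody genes among them, summed there to 53074 CPM on chow and 26195 CPM on the ketogenic diet. Scaled by the median of ratios over genes, Acadl had a log2 ratio of 0.71 and Hadhb 0.94, and neither was called. With mitochondrial, ribosomal protein, immunoglobulin and Malat1 transcripts left out of the total, the values were 0.79 and 1.02, and only Hadhb was called. Both genes stayed higher under these scalings, and the calls depend on them.

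Acadvl (chr11:70010183-70015411, minus strand), the very-long-chain dehydrogenase, was highest in the γδ T-like and NK-like clusters of both libraries. The γδ T-like cluster had 84.3 CPM [48.2–137] (16 UMIs) and 79.1 CPM [59.5–103] (54 UMIs), and the NK-like cluster had 58.4 CPM [47.8–70.7] and 72.1 CPM [63.5–81.4], which overlap. The mature DC-like cluster was lowest, at 12.8 and 11.6 CPM from 5 and 4 UMIs. Between diets, 10 of 12 clusters with enough UMIs were higher on the ketogenic diet and 0 were called. In the ILC2-like cluster Acadvl stood at 46.2 CPM [38.01–55.7] and 66.8 CPM [59.3–74.9], a ratio of 1.44 [1.16–1.81], and over all cells the ratio was 1.40 [1.28–1.54]. The gene overlaps Dvl2 on the opposite strand over 2119 bases, and the sources used here do not state whether counting used strand, so reads of these genes may not have been told apart.

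Acadm (chr3:153922357-153944632, minus strand), the medium-chain enzyme that also acts after long chains have been shortened, varied least between cell types of the dehydrogenases. It ran from 21.2 to 48.4 CPM over clusters on chow and from 20.5 to 59.5 CPM on the ketogenic diet, with cluster 8 highest in both. Its values were higher on the ketogenic diet in 6 of 13 clusters and lower in 7, and 0 of the 12 with enough UMIs were called. The cycling cluster was the farthest from 1, with 39.9 CPM [30.1–51.9] and 22.6 CPM [15.8–31.3], a ratio of 0.566 [0.361–0.877].

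The trifunctional protein genes lie head to head on chromosome 5, with Hadha at chr5:30118304-30155162 on the minus strand and Hadhb at chr5:30155248-30184593 on the plus strand. Their starts in GENCODE M21 are 86 bases apart, and the RefSeq starts used for the promoter windows differ from these. Their RefSeq promoter windows share the 228 bases below, printed because one stretch serves both genes (chr5:30155003-30155230, plus strand, GRCm38.p6); capitals mark the GC box.
Hadha and Hadhb: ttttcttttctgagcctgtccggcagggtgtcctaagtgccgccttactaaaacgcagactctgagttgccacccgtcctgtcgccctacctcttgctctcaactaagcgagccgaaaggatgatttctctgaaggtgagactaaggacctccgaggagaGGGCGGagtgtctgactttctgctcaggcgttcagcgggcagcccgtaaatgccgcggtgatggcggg
Hadhb, the thiolase subunit, was the member with the largest positive difference over all cells, at 43.6 CPM [40.9–46.5] from 931 UMIs on chow and 71.0 CPM [67.8–74.3] from 1836 UMIs on the ketogenic diet. With composition held equal the log2 ratio was 0.47, short of the call. It was higher on the ketogenic diet in 11 of 13 clusters. In the ILC2-like cluster Hadhb stood at 49.2 CPM [40.7–59.0] and 84.0 CPM [75.6–93.0], a ratio of 1.71 [1.38–2.12]. In the cycling cluster it stood at 36.3 CPM [26.9–47.8] and 70.9 CPM [58.4–85.2], a ratio of 1.95 [1.39–2.78]. The exceptions were cluster 8, at 42.9 and 39.7 CPM, and the mature DC-like cluster, at 33.4 and 11.6 CPM from 13 and 4 UMIs.

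Hadha, the subunit with hydratase and dehydrogenase activity, was likewise higher in 11 of 13 clusters, with a smaller difference. Over all cells it stood at 37.8 CPM [35.2–40.5] and 42.7 CPM [40.2–45.3], a ratio of 1.13 [1.03–1.24], and its composition-weighted log2 ratio was 0.29. The T-like cluster 2 had 25.7 CPM [14.7–41.8] (16 UMIs) and 48.8 CPM [40.9–57.7] (136 UMIs), a ratio of 1.90 [1.13–3.41]. Over the 26 values of cluster and library, Hadha and Hadhb had a Pearson correlation of 0.33 for log2(CPM + 10). Some of these values rest on as few as 4 UMIs, and the part of counting error in the correlation was not tested. Hadhb followed Acadvl more closely, at 0.82. These correlations describe summed cells of the same libraries, share their depth and carry no test. Hadha overlaps Garem2 on the opposite strand over 75 bases.

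Etfdh (chr3:79603788-79629500, minus strand), which hands electrons from beta-oxidation to ubiquinone, was highest in the mature DC-like cluster, at 33.4 CPM [17.8–57.1] (13 UMIs) and 28.9 CPM [13.9–53.2] (10 UMIs). Of those 10 ketogenic UMIs 7 came from 1 cell, so the rank in that library rests on it, and the interval does not cover such clustering. The Treg-like cluster came next, at 22.1 CPM [11.02–39.5] and 26.2 CPM [18.4–36.1], and overlapped it. Over all cells Etfdh stood at 11.2 CPM [9.82–12.7] and 15.7 CPM [14.2–17.3], a ratio of 1.40 [1.19–1.65]. The ILC2-like cluster had 11.4 CPM [7.48–16.5] (27 UMIs) and 20.6 CPM [16.6–25.4] (90 UMIs), a ratio of 1.82 [1.17–2.91], and 0 of 10 clusters were called. Etfdh overlaps 4930579G24Rik on the opposite strand over 422 bases.

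Pdk4 (chr6:5483351-5496309, minus strand) was almost confined to the chow library. It had 76 UMIs there, or 3.56 CPM [2.80–4.46], and 1 UMI on the ketogenic diet, or 0.0387 CPM [0.000979–0.215]. The ratio, chow over ketogenic diet, was 92.1 [16.04–3684]. This ratio includes the difference in composition: the composition-weighted log2 ratio was −2.14, against −5.95 unweighted. Most of the chow UMIs lay in the clusters with few ketogenic cells, 27 in the macrophage-like cluster and 27 in cluster 8, which held 0 and 1 UMI on the ketogenic diet. In cluster 8 the levels of 9.27 CPM [6.11–13.5] and 3.97 CPM [0.101–22.1] overlapped. The cDC2-like cluster, with 344 and 358 cells, had 14 UMIs or 6.35 CPM [3.47–10.7] on chow and 0 UMIs on the ketogenic diet. Set against a floor of 3 counts in that library, this is at least 5.85-fold lower. In the macrophage-like cluster the same floor gives at least 1.58-fold lower. The floor leaves out the counting error of the chow UMIs, and the exact intervals of the ratios, which include it, reach down to 4.16-fold and 1.20-fold lower. No cluster reached 30 UMIs, so Pdk4 has no call within a cluster.

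With composition held equal over 12108 genes, 2 of the 10 genes, Cpt1a and Pdk4, were at least 2-fold lower, against 1.5% of all genes, and 0 were at least 2-fold higher, against 0.785%. The value of Pdk4 depends on the count added to its single ketogenic UMI. The median over the 10 was 0.18, over all genes 0.04, and over the 8 genes without Cpt1a and Pdk4 it was 0.30. Acadvl at 0.34, Etfdh at 0.32 and Acadm at 0.07 lay above 0, and Acadl at −0.02 and Slc25a20 at −0.06 lay near it.

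In the γδ T-like cluster, the cells named in the title of the study, 59 chow and 170 ketogenic cells left 5 of the 10 genes with enough UMIs. None was called, against 5.52% of genes higher and 2.28% lower. Their median log2 ratio was 0.51, beside 0.06 over all genes there. These 5 genes had 4 to 16 UMIs on chow and 31 to 61 on the ketogenic diet, so they passed the minimum through the ketogenic library. Below the minimum, the log2 ratio was −1.06 for Cpt1a, −0.62 for Etfdh and 1.26 for Slc25a20. The median therefore does not describe the 10 genes in this cluster. Hadhb had 57.9 CPM [28.9–104] (11 UMIs) and 89.4 CPM [68.4–115] (61 UMIs), and Hadha had 21.1 CPM [5.74–53.9] (4 UMIs) and 45.4 CPM [30.9–64.5] (31 UMIs). Both pairs of intervals overlap. Cpt1a had 5 and 9 UMIs, or 26.3 and 13.2 CPM, under the minimum for a call.

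Of 91 combinations of 12 other beta-oxidation enzymes of the matrix and clusters with enough UMIs, 71 were higher on the ketogenic diet and 20 lower, with a median log2 ratio of 0.32. Over all genes 47040 combinations were higher and 36552 lower, with a median of 0.07. The call was reached upwards in 9 and downwards in 2, against 4.67% and 3.15% of all combinations. Hadh, the short-chain hydroxyacyl-CoA dehydrogenase, accounted for 4 of the 9. In the Treg-like cluster it rose from 20.1 CPM (10 UMIs) to 65.7 CPM (93 UMIs), a ratio of 3.28 [1.70–7.05], and in cluster 4 from 17.3 to 46.9 CPM (13 and 91 UMIs). Echs1, the enoyl-CoA hydratase, rose in clusters 2 and 9 and fell in cluster 8, where the ketogenic library had 3 UMIs. In cluster 9, as given above, 20% of all genes were called higher and the median log2 ratio of all genes was 0.50, and the Echs1 call there was not recomputed with another scaling. Acadsb, Acads and Acaa2 gave the remaining calls.

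The electron transfer flavoprotein genes Etfa and Etfb, which feed Etfdh, gave 0 calls in 26 combinations, against 4.67% of all combinations called higher and 3.15% lower. Etfb was lower in 13 of 13 clusters, at 220 and 149 CPM over all cells, with a composition-weighted log2 ratio of −0.33. Peroxisomal beta-oxidation, which shortens very long chains outside the mitochondrion, gave 1 call upwards in 64 combinations, Hsd17b4 in the NK-like cluster, and 0 downwards, both below those shares. Of the other carnitine enzymes, Crot, the peroxisomal octanoyltransferase, rose in 3 clusters, the 3 calls in 14 combinations of that list: from 7.25 to 15.9 CPM in cDC2-like, from 4.92 to 13.8 CPM in cDC1-like and from 10.2 to 23.8 CPM in cycling cells.

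Among known PPAR target genes outside the 10, more calls went downwards than upwards. Of 65 combinations of these genes and clusters, 12 were called lower and 2 higher, against 3.15% and 4.67% of all combinations. The median log2 ratio was −0.29, beside 0.07 over all genes. Of 8 genes with enough UMIs, 7 had a composition-weighted value below 0, beside 5459 of 12108 over all genes. Those of Acot2, Ucp2, Hilpda and Tmem135 were small, from −0.13 to −0.09. Plin2, the lipid droplet coat protein, gave 7 of the 12 lower calls. In the cDC2-like cluster it fell from 172 CPM (379 UMIs) to 64.4 CPM (178 UMIs), a ratio of 0.375 [0.312–0.449], and in cluster 4 from 86.3 to 30.9 CPM (65 and 60 UMIs). The 12 macrophage markers summed to 222 and 34.0 CPM in cluster 4 and to 596 and 510 CPM in the cDC2-like cluster, and their part in the Plin2 values was not tested. In the macrophage-like cluster the acyl-CoA thioesterase Acot1 had 100 UMIs on chow and 0 on the ketogenic diet. Angptl4, a lipase inhibitor, fell there from 8.86 CPM (45 UMIs) to 2.24 CPM (2 UMIs), and Hilpda, a droplet protein also induced by low oxygen, fell from 402 to 167 CPM. Against this direction, Fabp4, a fatty acid binding protein, rose in the macrophage-like cluster from 49.0 CPM (249 UMIs) to 129 CPM (115 UMIs). It was also called lower in the mature DC-like cluster, from 69.3 CPM (27 UMIs) to 26.02 CPM (9 UMIs), and higher in cluster 8, from 10.6 CPM (31 UMIs) to 19.8 CPM (5 UMIs), where the log2 ratio of 1.01 passes 2-fold only with the 0.5 added to each UMI sum and the interval of the ratio, 0.566 to 4.84, includes no difference. Ppara, the PPAR of the fasted liver, had 0 and 1 UMI, whereas Pparg had 264 and 353 UMIs and Ppard 98 and 115. Pparg was higher on the ketogenic diet in 5 of 5 clusters with enough UMIs and called higher in 2, the Treg-like cluster and cluster 8. In cluster 8 (48 and 8 UMIs) its log2 ratio of 1.02 passes 2-fold only with the 0.5 added. The interval of that ratio, 0.787 to 4.11, includes no difference. The composition-weighted log2 ratio of Pparg was 0.50. Over the whole list of 15 regulators of the pathway, 6 of 73 combinations were called higher and 1 lower, against 4.67% and 3.15% of all combinations, with a median log2 ratio of 0.07.

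Among genes of fatty acid uptake and activation, 9 of 59 combinations were called lower and 2 higher, against 3.15% and 4.67% of all combinations. Both higher ones were Fabp4, which is in the list of PPAR targets too. Of the 9 lower ones, Slc27a1 and Acsl5 gave 2 each and Fabp4 gave 1. For Slc27a1 and Acsl5, 1 call each was in cluster 8, with 0 and 6 ketogenic UMIs. Those 2 ratio intervals reach up to 1.09 and 1.003 and so include no difference, and 9% of all genes were called lower in that cluster. Acsl5 was higher in 10 of 13 clusters, with a composition-weighted log2 ratio of 0.33. The scavenger receptor Cd36 accounted for 4 of the 9: it fell in the macrophage-like cluster from 229 CPM (1163 UMIs) to 64.9 CPM (58 UMIs), a ratio of 0.284 [0.214–0.369], and in the ILC2-like, cDC2-like and cycling clusters. The 12 macrophage markers summed to 164 and 47.0 CPM in the ILC2-like cluster, 596 and 510 CPM in the cDC2-like cluster and 478 and 216 CPM in the cycling cluster, and their part in the Cd36 values there was not tested. Genes of pyruvate dehydrogenase and its control were higher in 12 of 12 composition-weighted values, with a median of 0.37 beside 0.04 for all genes, of which 6649 of 12108 were higher. None of those 12 values reached 2-fold. By cluster, 71 of 89 combinations were higher and 18 lower. The call was reached upwards in 3 and downwards in 1, against 4.67% and 3.15% of all combinations. The upward calls were Pdk3 and Pdhb in cluster 9 and Pdp2 in the NK-like cluster. The downward call was Dlat in cluster 8, with 1 ketogenic UMI. In cluster 9, 20% of all genes were called higher and the median log2 ratio of all genes was 0.50. Pdk1, a kinase of the same family as Pdk4, had a composition-weighted log2 ratio of 0.24, beside 9.74 CPM (208 UMIs) on chow and 18.6 CPM (481 UMIs) on the ketogenic diet over all cells, where composition differs.

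**Figure D4:**
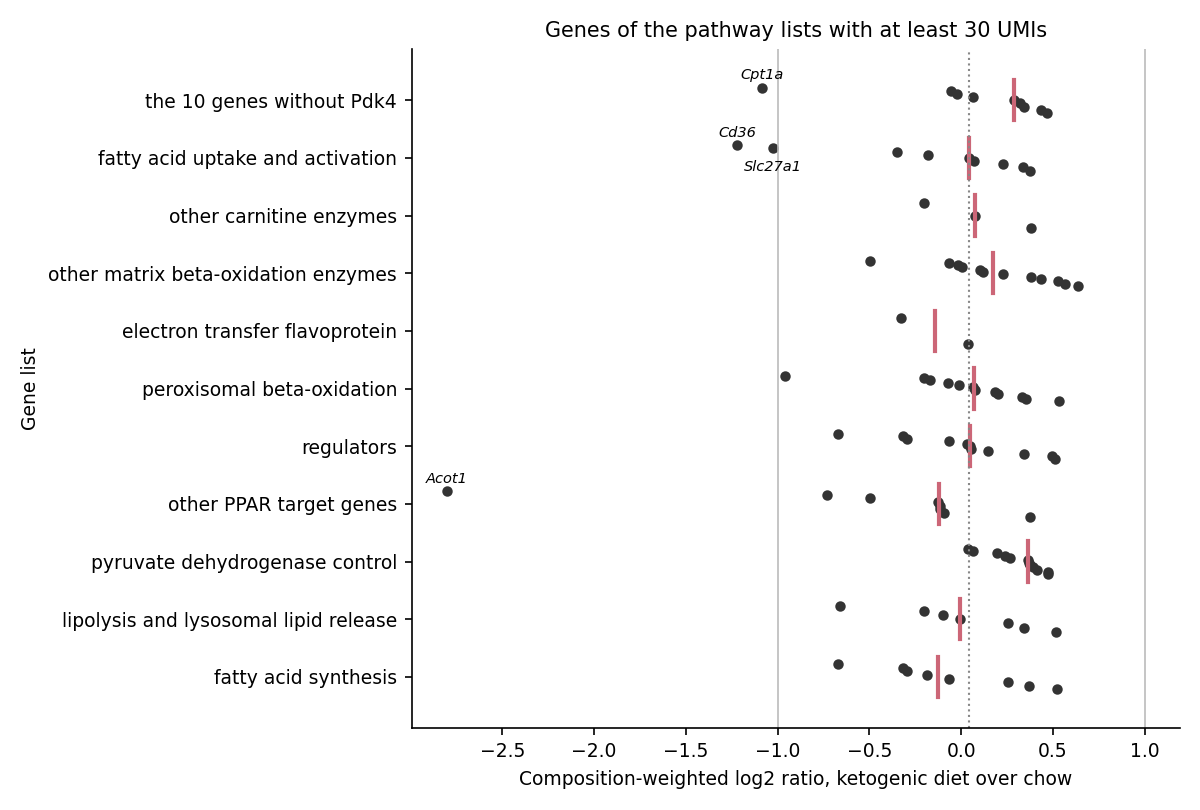
Composition-weighted log2 ratio, ketogenic diet over chow, of each gene with at least 30 UMIs in all and more than 3 in each library (points), by gene list, with the list's median (red bar), the median of all genes (dotted line, 0.04) and 2-fold either way (grey lines). Cpt1a, Cd36, Slc27a1 and Acot1 lie at or beyond 2-fold lower; Pdk4, with 1 ketogenic UMI, is not drawn.

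The pattern of each gene over the 26 values was compared across 6689 genes with at least 500 UMIs by the Pearson correlation of log2(CPM + 10), for the 3 genes that varied most. Slc25a20 was most like Sept3 and Havcr2, at 0.88 each, and Gcsam, at 0.87. Cpt1a was most like Cltc at 0.89, Med13l at 0.88 and Fn1 at 0.87. Hadhb was most like Max at 0.92, Rac2 at 0.91 and Dkc1 at 0.90. Among the members themselves, Cpt1a and Pdk4 had a correlation of 0.61 and Cpt1a and Slc25a20 one of 0.08. Pdk4 had a UMI in only 8 chow clusters and 1 ketogenic cluster, so most of its 26 values lie at the floor. These correlations describe likeness over clusters of the same libraries, with no test.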

How the data were processed

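The authors deposited 1 matrix of raw UMI counts for each diet, and their deposited table gives each cell's cluster at resolution 0.5. Cell Ranger, Seurat and the mm10 build are named per the submitters' processing notes, and their versions and the strand used in counting are not given in the sources used here. Libraries were prepared with a 10x Genomics kit, per the labels' protocols.

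UMIs were summed per cluster and library over clustered cells and scaled to CPM, with Python 3.11.15, NumPy 2.4.6, SciPy 1.17.1 and pandas 2.3.3. Ratios of ketogenic diet over chow have exact conditional intervals, and their log2 values have 0.5 added to each sum. A call needs 2-fold and, summed over the libraries, 30 UMIs or more in the cluster. With 1 library per diet no test was made and no p-value computed. Of 13 clusters, a cluster was named when at least 3 markers of a class were raised 2-fold (with 20 CPM added) and at least 1 was among its 10 leading genes, with no other class having more there. Gene positions are from GENCODE M21, in which 28339 of 28692 gene IDs (98.8%) were found, and promoters are from RefSeq GRCm38.p6, matched for 10 of 10 genes by symbol. The 10 genes, the pathway lists, markers and rules were chosen with earlier results of these data known. All 10 members are named, as are the 3 genes most like each of the 3 members that varied most. Of the list genes, many that pass the call or stand out in their list are named, but not all. The called genes Mlycd, Rxrb, Nrf1, Prkaa1, Lipa and Abhd5 are counted in their lists and not described. Etfb, Pdk1, Ppara, Pparg and Ppard were named after their values were seen. Alternatives were 2 other scalings, another added count, 3 other minimums, another fold, a depth minimum, the mean over cells, leaving out the cell with the most UMIs of the gene, the removal of 10% of UMIs as free RNA, the split of cluster 3, other cluster weights, leaving out clusters 3 and 8, and another reference for levels between clusters.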

Additional observations from a re-analysis of the deposited data

How the results depend on the processing

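With 1 library per diet no replicate could be left out, and no paired analysis was possible because each diet has only 1 library. The 2 upward calls became 3 without the cell holding the most UMIs of the gene, 3 after removal of 10% free RNA, 0 under median-of-ratios scaling, 1 without mitochondrial, ribosomal, Malat1 and immunoglobulin transcripts in the total, 7 with a minimum of 10 UMIs, 8 with a minimum of 1, 1 with a minimum of 100, and 12 at 1.5-fold. The 6 downward calls became 12 with a minimum of 10 UMIs (9 of them Cpt1a and 2 Pdk4), 17 with a minimum of 1, 2 with a minimum of 100, and 10 at 1.5-fold. A lower minimum tests more combinations and 1.5-fold is a wider call; the cause of the changes with the 2 scalings was not tested. The 1 combination of member and cluster raised over other cells in both libraries became 2 after removal of 10% free RNA, 2 against the median of the other clusters and 8 at 1.5-fold; the cause of the first change was not tested. The median of 0.18 over the 10 genes was 0.30 without Cpt1a and Pdk4, an alternative chosen after seeing the data. Of 674 single log2 ratios under alternatives, 673 stayed inside their counting interval, and the other was Cpt1a in the macrophage-like cluster, at −1.53 in cells with at least 3 C1q UMIs against −0.62. Cpt1a was below 0 in 72 of 72 such values, from −2.08 to −0.31, and 0 called values changed sign. Depth limits Cpt2 and Pdk4, and clusters 3 and 8 of the ketogenic library, with 145 and 47 cells, limit every gene there.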

Other observations

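Genes of lipolysis and lysosomal lipid release gave 7 calls downwards and 2 upwards in 43 combinations of gene and cluster, against 3.15% and 4.67% of all combinations, and the 7 were all Lpl, lipoprotein lipase, which releases fatty acids from circulating triglyceride. In the Treg-like cluster Lpl had 50.2 CPM (25 UMIs) on chow and 3.53 CPM (5 UMIs) on the ketogenic diet, and in cluster 4 it had 37.2 CPM (28 UMIs) and 3.09 CPM (6 UMIs). With composition held equal the log2 ratio of Lpl was −0.20, against −3.15 unweighted, and it was higher in 2 of 9 clusters with enough UMIs. Lpl is among the 10 leading genes of cluster 8, which held 362 chow and 47 ketogenic cells. The part of free RNA from such cells in the lymphoid values was not tested. In 62 combinations, against the same shares, fatty acid synthesis genes gave 2 calls upwards, both Scd2, a stearoyl-CoA desaturase, which rose in the NK-like cluster from 5.01 CPM (9 UMIs) to 17.2 CPM (62 UMIs) and in the cDC1-like cluster from 8.20 to 17.5 CPM, and 1 downwards, Scd2 in cluster 8 (40 UMIs and 0 UMIs).

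The 87 chow and 55 ketogenic cells outside the deposited clusters all had a mitochondrial share above 5%. Cpt1a stood at 72.0 CPM [41.1–117] (16 UMIs) and 45.6 CPM [19.7–89.8] (8 UMIs) in them, and the intervals overlap.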
